A study of Mus musculus with 3 samples.

Results

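Day 4 embryoid bodies with a knockdown of Brachyury were compared with control bodies of the same day, gene by gene. Embryoid bodies (EBs) are aggregates in which mouse embryonic stem (ES) cells differentiate. Both cultures came from the D3 ES cell line, for which the labels name (C3H/HeH x 101/H)F1 as the source strain. The control has the genotype Wildtype in the labels and its values are headed nontarget, while the other culture has the genotype Brachyury knockdown. How the knockdown was made, and whether the cells were 1 clone, is not given in the sources used here. Each side was 1 library of total RNA from a whole culture, so nothing below could be checked against replicates or tested. Of 36663 gene symbols, 9911 reached at least 5 FPKM (fragments scaled for transcript length and library size) in either library. After 90 short RNAs and 1493 pseudogenes or near-identical copies were set apart, 8328 genes remained. The measure of change was the log2(FPKM + 1) of the knockdown minus that of the control, and a gene is called higher or lower in the knockdown where this difference is at least 1 either way. ES cells at day 0, also D3, enter only as a reference level from a second table with its own quantification.

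Brachyury, encoded by T, is the founding member of the T-box family of transcription factors. It is made in the primitive streak, the site where epiblast cells turn into mesoderm and endoderm, and later in the node and notochord, and mouse embryos without it lack a notochord and most of the posterior body. In the streak it acts together with Wnt and FGF signals, whose ligands are described as both its inducers and its targets. T-box factors bind DNA elements built around a short core whose usual form is TCACACCT.

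T, whose deposited locus is 8627288 to 8635361 of chromosome 17 on mm9 (ENSMUSG00000062327), had 254 FPKM in the control and 2.47 FPKM in the knockdown, or 0.970% of the control level. The knockdown library thus had the lower T, in the direction of its label, and T had the largest decrease of all 8328 genes (log2 difference −6.20). In bulk RNA, fewer cells that express a gene and less of its RNA per cell cannot be told apart, here and for every gene below.

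Promoter windows of 4 genes are printed for reference, from RefSeq on GRCm38.p6, each from 250 bases before the annotated start to 50 bases after it and written along the gene's own strand. T is shown as the targeted gene, Igfbp3 and Sfrp5 as genes near the ends of the range of differences, and S100a13 because its window overlaps that of S100a1, another gene lower in the knockdown. Capitals mark the T-box core letters TCACACC or their reverse complement GGTGTGA. The windows lie at chr17:8434173-8434472 on the plus strand for T, at chr11:7213874-7214173 on the minus strand for Igfbp3, at chr19:42202203-42202502 on the minus strand for Sfrp5, and at chr3:90514185-90514484 on the plus strand for S100a13.
T: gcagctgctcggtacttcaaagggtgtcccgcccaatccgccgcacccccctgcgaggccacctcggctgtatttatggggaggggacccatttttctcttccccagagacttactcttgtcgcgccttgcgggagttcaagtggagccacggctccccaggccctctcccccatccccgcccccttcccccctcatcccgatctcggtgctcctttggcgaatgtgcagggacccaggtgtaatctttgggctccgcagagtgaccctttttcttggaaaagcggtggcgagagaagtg
Igfbp3: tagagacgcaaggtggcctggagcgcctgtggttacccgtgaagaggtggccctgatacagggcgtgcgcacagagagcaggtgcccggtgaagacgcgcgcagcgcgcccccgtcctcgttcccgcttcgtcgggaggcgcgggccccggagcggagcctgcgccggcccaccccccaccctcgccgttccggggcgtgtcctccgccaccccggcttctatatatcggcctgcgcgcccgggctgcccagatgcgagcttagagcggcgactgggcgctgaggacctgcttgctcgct
Sfrp5: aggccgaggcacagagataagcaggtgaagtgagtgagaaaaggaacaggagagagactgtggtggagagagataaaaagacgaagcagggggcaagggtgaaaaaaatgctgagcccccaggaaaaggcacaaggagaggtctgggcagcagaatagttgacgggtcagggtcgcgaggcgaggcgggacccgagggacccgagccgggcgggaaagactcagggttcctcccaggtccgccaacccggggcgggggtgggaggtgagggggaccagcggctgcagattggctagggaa
S100a13: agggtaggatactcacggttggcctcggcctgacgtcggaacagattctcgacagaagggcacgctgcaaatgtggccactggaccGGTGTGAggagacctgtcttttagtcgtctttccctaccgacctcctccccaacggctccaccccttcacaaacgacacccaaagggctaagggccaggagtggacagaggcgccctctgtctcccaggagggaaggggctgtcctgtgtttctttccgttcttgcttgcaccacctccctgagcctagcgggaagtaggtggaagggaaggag

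The core was rare in such windows. TCACACCT was found on either strand in 1.28% of all 32851 windows, and the 7-letter TCACACC, which every TCACACCT also contains, in 3.98%. Over the 8575 windows of the genes kept here, the shares were 0.711% and 3.04%. Of the 168 windows of genes lower in the knockdown, 7 (4.17%) held TCACACC and 1 (0.595%) held TCACACCT. Of the 250 windows of genes higher in the knockdown, 5 (2%) held TCACACC and 0 held TCACACCT. None of the 11 windows found for the 20 lowest genes, and none of the 15 found for the 20 highest, held either. In the S100a13 window the 7 letters start 164 bases before the annotated start. A gene can have several windows, 135 of the 180 lower and 170 of the 230 higher genes had at least 1, and a match is a run of letters and not a binding site.

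Most of the genes kept differed by less than the size rule. Of the 8328 genes, 230 were higher (2.76%) and 180 were lower (2.16%), together 410 (4.92%), and 7918 (95.1%) lay within the size rule. The median difference was 0.037, and the central 90% of genes lay between −0.56 and 0.72. Differences of at least 2 on this scale were found for 54 higher and 39 lower genes. The authors' deposited p-values rest on 1 library a side, so they cannot measure variation between cultures and are not used here.

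**Figure D1:**
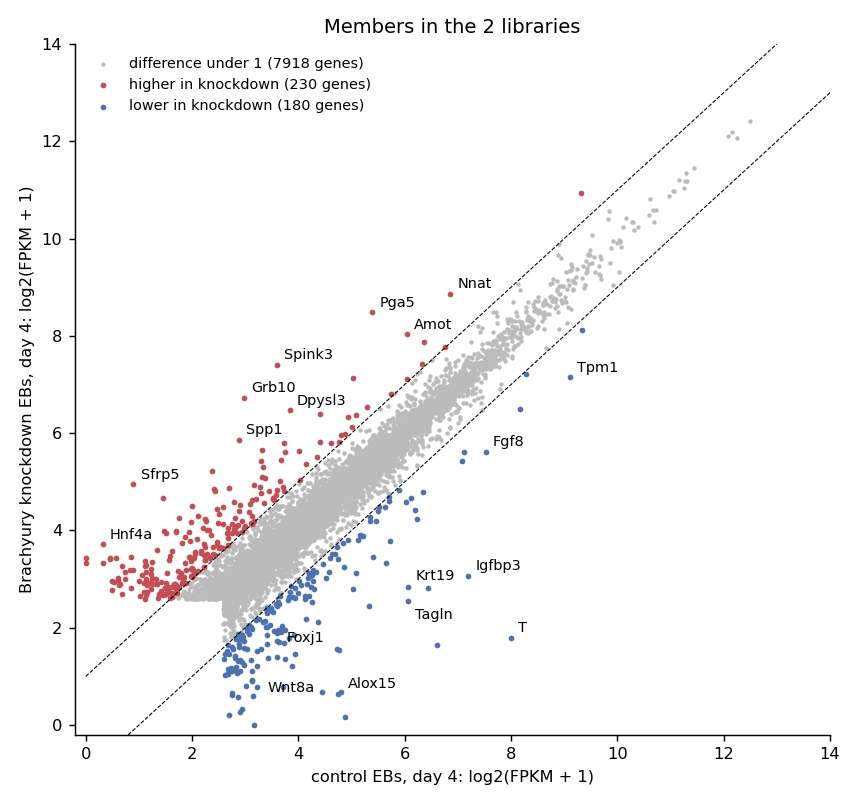
The log2(FPKM + 1) of each of the 8328 genes in the control library (x axis) and in the Brachyury knockdown library (y axis), with the genes called higher or lower by the size rule coloured and marker genes named. Most points lie along the diagonal, and T stands farthest below it, at 254 and 2.47 FPKM.

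Weakly expressed genes filled much of these counts. Of genes with a mean under 5 FPKM in the 2 libraries 33.2% were called, against 5.87% of those from 5 to 10 FPKM and 1.87% of those of at least 200 FPKM. In 150 of the 230 higher genes and 112 of the 180 lower genes the other library was under 5 FPKM. Just inside the size rule was Myo6, at 7.72 FPKM in the control and 16.5 in the knockdown, and just outside it was 2400009B08Rik, at 6.95 and 14.9. On the lower side Emp3, at 6.30 and 2.65 FPKM, was just inside and Cebpb, at 6.56 and 2.79, just outside. At the floor of 5 FPKM, Slc35a3 entered with 4.42 FPKM in the control and 5.00007 in the knockdown, and Pcyox1l, at 3.53 and 4.99864, did not.

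The genes with the largest decreases included secreted signals, a lipid enzyme and structural proteins as well as transcription factors. Igfbp3, a secreted binding protein of insulin-like growth factors, was at 145 FPKM in the control and 7.38 in the knockdown. Fgfbp1, which releases FGFs from the extracellular matrix, was at 85.2 and 6.09 FPKM. Alox15, a lipoxygenase that oxidises polyunsaturated fatty acids, was at 26.8 and 0.609 FPKM. The list is led by T and next by Cxx1c, at 96.8 and 2.12 FPKM at a locus shared with another gene. The close paralogs of Cxx1c, Cxx1a and Cxx1b, were set apart as copies, so that its reads may be shared with theirs. Genes listed at 0 in either library were left out of the ranking at both ends, among them Isg15, at a difference of −3.17. Of the 20 lowest genes so ranked, 12 were under 1 FPKM in ES cells and 9 were under 1 FPKM in the knockdown. At loci shared with other genes were 5 of the 20. Near the floor were the small heat shock protein gene Cryab, at 7.87 FPKM in the control and 0.512 in the knockdown, and the forkhead gene Foxb1, at 5.44 and 0.155.

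Both members of a ligand and receptor pair were among those 20. Apln, the peptide ligand apelin, was at 8.35 FPKM in the control and 0.709 in the knockdown, and Aplnr, its receptor, which marks nascent mesoderm, at 26.1 and 1.91. Fst, a secreted protein that binds activin, was at 39.3 and 4.44 FPKM. Ltb, a cytokine of the tumour necrosis factor family, was at 25.6 and 0.546 FPKM. Srgn, the core protein of a granule proteoglycan, was at 12.1 and 0.714 FPKM. In ES cells Srgn was at 12.3 FPKM, close to the control, while the other genes of this paragraph were at 2.06 FPKM or less.

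The genes with the largest increases held signalling inhibitors, secreted proteins and genes of undifferentiated cells. Sfrp5, a secreted antagonist of Wnt ligands, was at 0.860 FPKM in the control and 30.0 in the knockdown, 34.9-fold higher. Spink3, a secreted inhibitor of serine proteases, was at 11.03 and 169 FPKM. Grb10, an imprinted gene for an adaptor that restrains insulin and IGF receptor signalling, was at 6.86 and 105 FPKM. Irs4, a substrate adaptor of the same receptors, was at 1.75 and 24.6 FPKM, and Pga5, a pepsinogen, at 40.8 and 358 FPKM. All 5 exceeded their ES cell levels as well as the control.

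A second kind of gene among the 20 highest lay between control EBs and ES cells. Tdh, threonine dehydrogenase, an enzyme abundant in mouse ES cells, was at 104 FPKM in ES cells, 4.22 in the control and 36.5 in the knockdown. Spp1, the secreted phosphoprotein osteopontin, was at 142, 6.39 and 57.2 FPKM. Sept1, a septin, was at 241, 2.38 and 18.2 FPKM. Left out of the ranking for a listed 0 in the control were Gm10022, at 9.84 FPKM in the knockdown, and Prtn3, the proteinase 3 gene, at 9.08 FPKM at a locus shared with other genes. Of the 20 highest so ranked, 16 were higher in ES cells than in the control and 6 were higher in ES cells than in the knockdown. These counts use no margin, and the ES cell levels were quantified separately. Some of the 16 were near ties, such as Dpysl3, at 13.39 FPKM in ES cells and 13.25 in the control, and Stk32a, at 0.414 and 0.378. Low control levels make many of these increases imprecise: 9 of the 20 were under 1 FPKM in the control. At loci shared with other genes were 7 of the 20. Hnf4a, a hepatocyte nuclear factor of visceral endoderm, was at 0.250 and 12.2 FPKM at a locus shared with other genes, and Dcn, a matrix proteoglycan, at 0.253 and 9.12 FPKM.

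**Figure D2:**
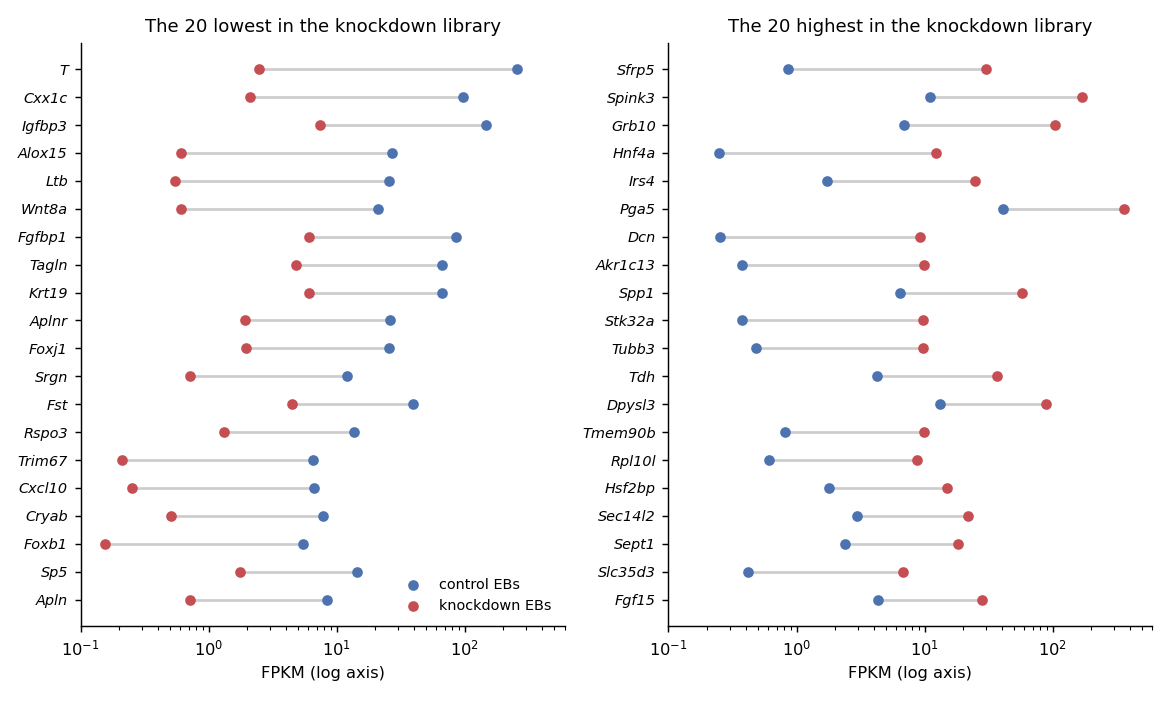
FPKM, on a log axis, of the 20 lowest (left) and the 20 highest (right) genes in the knockdown, with 1 point for each of the 2 libraries and a line between them. T runs from 254 to 2.47 FPKM at one end and Sfrp5 from 0.860 to 30.0 FPKM at the other.

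Streak and node genes were divided. Of 13 described Brachyury targets above the floor, 10 were lower and 0 higher (median difference −1.78, against 0.037 over all genes). That list, like the others here, was written with earlier results of these data known, so its direction is no independent check. Most of the 13 passed the floor only through the control, where they were higher, and the median was −0.96 with no floor. Fgf8, the FGF ligand of the streak, was at 183 FPKM in the control and 48.1 in the knockdown. Mixl1, a homeobox gene of the streak, was at 11.97 and 3.10 FPKM, and Evx1, a posterior homeobox gene, at 5.82 and 1.97. Dll3, a Notch ligand family member, at 8.52 and 4.72 FPKM, and Lef1, a nuclear partner of beta-catenin, at 6.02 and 4.79, were within the size rule. Cyp26a1, which degrades retinoic acid, had 55.5 FPKM in the control and 112 in the knockdown, a difference just under 1. A further 11 genes of that list were under 5 FPKM in both libraries, so nothing is said of them by this rule.

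Other streak genes had close levels in the 2 libraries. Eomes, the T-box factor of early streak mesendoderm, was at 41.0 FPKM in the control and 29.7 in the knockdown. Gsc, a homeobox gene of the anterior streak, was at 42.1 and 52.9 FPKM, and Lhx1, a LIM homeobox gene of the same region, at 27.5 and 36.5. Of 12 primitive streak genes 6 were lower and 1, Fgf4, was higher. The streak list and the list of described targets overlap. The organizer genes split in the same manner: Chrd, a secreted BMP antagonist of the node, was at 13.1 and 2.47 FPKM, and Krt19, a keratin, at 65.9 and 6.10, while Cer1, a secreted antagonist of Nodal, BMP and Wnt, was at 56.7 and 86.2. Of 10 node and notochord genes 5 were lower and 0 higher. Foxj1, the regulator of motile cilia, was at 25.4 and 1.96 FPKM. Only 7 of 42 motile cilia genes reached the floor, of which 2 were lower (Foxj1 and Cfap126) and 1 was higher, Rsph1, a radial spoke gene at 1.81 and 6.06 FPKM.

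Definitive endoderm genes lay above the control in most cases. Of 17 members, 7 were higher and 1 was lower, where 2.76% of all genes were higher and 2.16% lower. The median difference was 0.90, but 0.60 with a floor of 20 FPKM and 0.53 with 5 FPKM in both libraries. Sox17, a transcription factor of endoderm, was at 26.3 FPKM in the control and 55.1 in the knockdown. Cxcr4, a chemokine receptor used as a surface marker of definitive endoderm, was at 31.1 and 68.9 FPKM, and Hhex, a homeobox gene of anterior endoderm, at 8.16 and 23.9. The gene that was lower was Foxa2, a forkhead factor of endoderm, node and notochord, at 42.8 and 17.4 FPKM. Of 16 visceral and parietal endoderm genes 4 were higher and 0 lower (median 0.05, but 0.78 without shared loci and −0.13 with a floor of 1 FPKM). Spink3, Hnf4a and Tdh, which is also an ES cell gene, were among the higher ones.

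Many genes of naive pluripotency, the ground state of ES cells, had more RNA in the knockdown than in the control, at levels below those of ES cells. Of 16 members 9 were higher and 1, Pim1, was lower (median difference 1.64). Zfp42, a zinc finger gene that marks ES cells, was at 467 FPKM in ES cells, 5.51 in the control and 28.5 in the knockdown. Esrrb, an orphan nuclear receptor gene, was at 169, 1.33 and 6.69 FPKM. Nr0b1, a nuclear receptor gene of ES cells, was at 61.6, 0.417 and 5.89 FPKM. Nanog went the other way within the size rule, at 257, 128 and 91.7 FPKM, and Pou5f1, the core pluripotency factor Oct4, was at 390 in the control and 361 in the knockdown. Of the 9 higher genes 6 were under 5 FPKM in the control, and with a floor of 5 FPKM in both libraries, a setting chosen after seeing the data, the list median was 0.82.

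**Figure D3:**
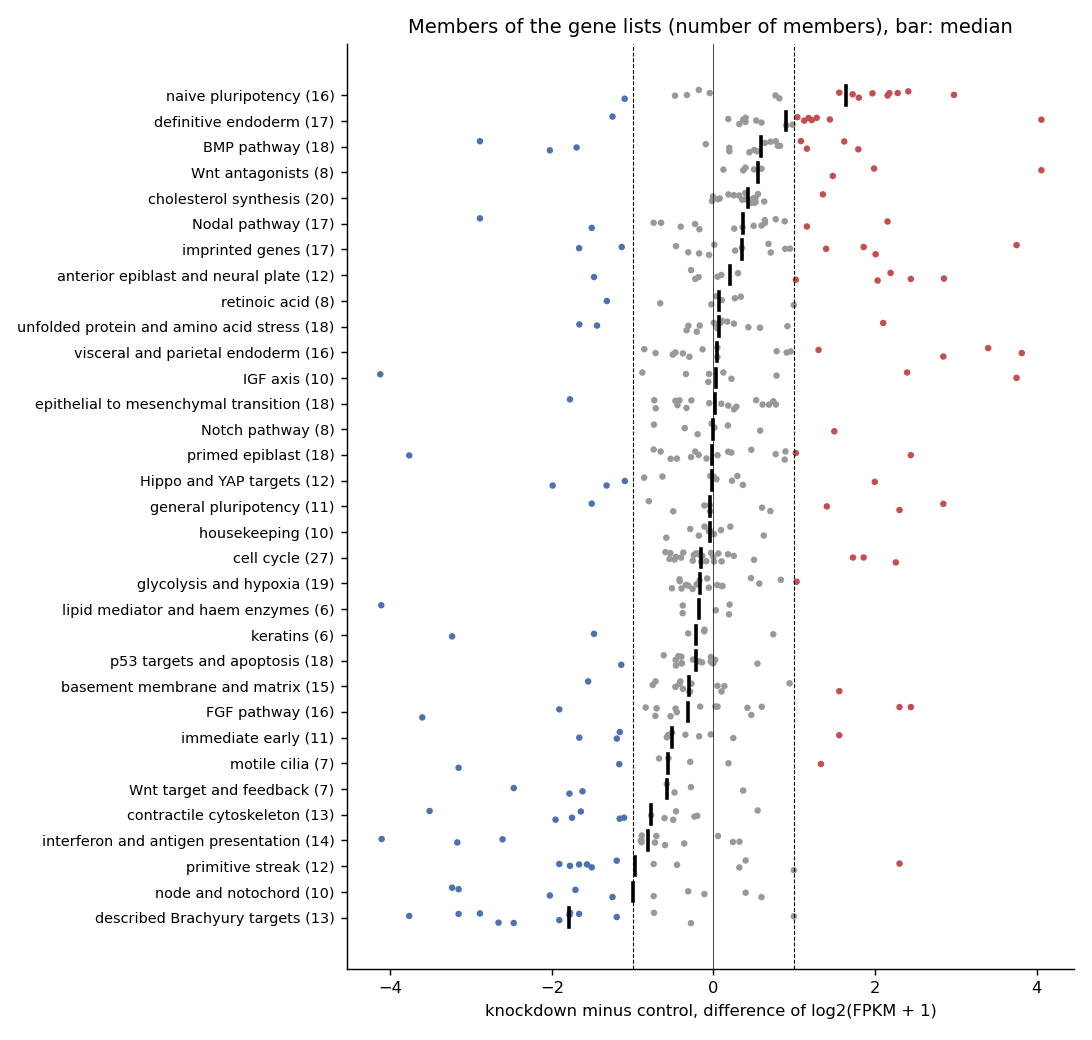
Difference of log2(FPKM + 1), knockdown minus control, for the members of each gene list with at least 6 members (1 point a gene, a bar at the median), with lines at 0 and dashed at the size rule. The described Brachyury targets have a median of −1.78 and the naive pluripotency genes a median of 1.64, while housekeeping genes lie at −0.05. The lists were written with earlier results of these data known.

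Among Wnt genes above the floor, agonist genes were mostly lower and antagonist genes were higher or within the size rule. Of 4 Wnt ligand and R-spondin genes above the floor 3 were lower and 0 higher (median difference −2.11, but −0.16 with no floor). The other 19 genes of the list were under 5 FPKM in both libraries. Wnt8a, a ligand of the posterior streak, was at 20.8 FPKM in the control and 0.604 in the knockdown. Wnt3, the ligand needed to start the streak, was at 6.44 and 1.51 FPKM, and Rspo3, a secreted enhancer of Wnt signalling, at 13.7 and 1.32. These 3 passed the floor only through the control, where they were higher. All 8 secreted or membrane Wnt antagonist genes above the floor had differences above 0, and 3 were higher by the size rule. The list median was 0.55, but 1.73 with a floor of 20 FPKM and 1.04 without shared loci. The other 10 genes of that list were under 5 FPKM in both libraries. Sfrp5 passed the floor only through the knockdown, where it was higher. Beside it the higher antagonist genes were Sfrp1, a related antagonist, at 20.3 and 83.7 FPKM, and Shisa2, at 8.79 and 26.3. Shisa2 is a relative of Xenopus Shisa, which holds frizzled receptors back inside the cell. Of 7 Wnt target and feedback genes 3 were lower and 0 higher. They were Sp5, a zinc finger target of Wnt, at 14.4 and 1.77 FPKM, its relative Sp8, at 5.41 and 1.09, and Axin2, a feedback inhibitor, at 7.64 and 1.51.

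The Wnt receptors did not share 1 direction. In a family chosen after its values were seen, 7 frizzled genes were members, of which 2 were higher and 1 was lower. Fzd5 was at 8.79 FPKM in the control and 41.9 in the knockdown, and Fzd8 at 6.84 and 15.7. Fzd10 was at 6.02 and 1.68 FPKM. These genes encode receptors for Wnt ligands.

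FGF pathway genes split by ligand. Of 16 members 2 were higher and 2 were lower (median difference −0.31). Fgf8 and the binding protein gene Fgfbp1 were the lower ones. Fgf4, an ES cell FGF, was at 0.847 FPKM in the control and 8.12 in the knockdown, and Fgf15, its chromosomal neighbour, at 4.33 and 28.0. Genes induced by FGF signalling did not pass the size rule: Dusp6, a phosphatase that limits ERK, was at 86.2 and 52.6 FPKM, and Spry2, an inhibitor of the pathway, at 31.7 and 32.3. Fgf5, a ligand of the primed epiblast, was at 113 and 77.7 FPKM.

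In the Nodal pathway a co-receptor gene was lower. Tdgf1, which encodes this co-receptor, Cripto, was at 138 FPKM in the control and 48.0 in the knockdown, and its relative Cfc1, Cryptic, at 45.2 and 64.3. Nodal itself was at 9.41 and 5.23 FPKM. Lefty1, a secreted Nodal antagonist, was at 50.3 and 93.6 FPKM, and Lefty2 at 8.07 and 14.5, both within the size rule. Of 17 members 2 were higher and 2 were lower (median difference 0.36). Gdf3, a ligand of the same family that is abundant in ES cells, was among the higher ones at 1.16 and 8.60 FPKM.

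In the BMP pathway 2 antagonist genes were lower and 2 target genes were higher. Of 18 BMP pathway members 4 were higher and 3 were lower (median difference 0.59). The lower genes were the antagonists Fst and Chrd and the ligand Bmp7, which was at 11.6 FPKM in the control and 2.90 in the knockdown. Id2 and Id1, transcriptional regulators induced by BMP, were at 11.7 and 42.9 and at 64.8 and 138 FPKM. Id3, of the same family, was at 46.8 and 73.3 FPKM, within the size rule. Bmper, a secreted modulator of BMP, was higher, at 1.04 and 5.26 FPKM.

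Genes of the contractile cytoskeleton, which builds actin and myosin bundles, were lower or within the size rule. Of 13 members 6 were lower and 0 higher (median difference −0.77). Tpm1, a tropomyosin that stabilises actin filaments, was at 548 FPKM in the control and 141 in the knockdown. Tagln2 and Tagln, actin-binding transgelins, were at 133 and 42.0 and at 65.7 and 4.84 FPKM, the latter at a locus shared with other genes. Myl9, a myosin light chain, was at 23.7 and 10.5 FPKM, and Cnn1, a calponin, at 5.77 and 2.03. Tpm2, by contrast, was at 12.9 and 10.8 FPKM, and Flna, which cross-links actin, at 110 and 95.3. Myl7, an atrial myosin light chain, was the only member with a difference above 0, at 3.12 and 5.02 FPKM.

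Targets of YAP, the effector of Hippo signalling, and immediate early genes each held lower members. Cyr61 and Ctgf, matricellular proteins used as readouts of YAP, were at 74.1 FPKM in the control and 17.9 in the knockdown and at 25.6 and 9.65. Amotl2, an angiomotin that binds YAP, was at 44.4 and 20.2 FPKM. Its relative Amot had the opposite difference, at 64.6 and 261 FPKM. Of 12 genes of this list 3 were lower and 1 was higher (median −0.02). Of 11 immediate early genes 3 were lower and 1, Klf2, was higher (median difference −0.51). Junb, an AP-1 subunit, was at 17.2 and 7.14 FPKM and Nr4a1, an orphan nuclear receptor gene, at 10.4 and 3.99.

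Some families of calcium-binding and membrane proteins, chosen after their values were seen, held lower members. Of 5 S100 genes above the floor 4 were lower, among them S100a6 at 10.1 FPKM in the control and 3.17 in the knockdown. S100a11 was at 50.9 and 24.9 FPKM, and S100a10, at 475 and 280, was within the size rule. S100 proteins are small calcium-binding proteins, several of which pair with annexins. Anxa2, the annexin partner of S100a10, was at 32.7 and 7.73 FPKM and Anxa3 at 12.4 and 2.87, the 2 lower genes among 7 annexins, of which Anxa4 was at 52.7 and 74.8. Of 6 Eph receptor genes 2 were lower, with Epha1 at 31.4 and 5.90 FPKM and Epha2 at 18.5 and 6.75, while Epha4 was at 3.17 and 6.97, within the size rule (family median −0.05). Eph receptors are tyrosine kinases that respond to ephrins on neighbouring cells.

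Of 17 imprinted genes, which are expressed from 1 parental copy, 4 were higher and 2 lower (median difference 0.35). Nnat, which encodes the membrane protein neuronatin, was at 115 FPKM in the control and 465 in the knockdown. Cdkn1c, an inhibitor of cyclin-dependent kinases, was at 12.4 and 47.7 FPKM, and Peg10, a retrotransposon-derived gene, at 20.3 and 55.1. Plagl1, a zinc finger gene, was lower at 11.2 and 2.85 FPKM, as was Phlda2, a placental growth regulator, at 20.9 and 8.98. Igf2, the growth factor that these genes are often studied with, was at 7.71 and 7.38 FPKM.

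Proliferation genes lay within the size rule apart from kinase inhibitors. Of 27 cell cycle genes 3 were higher and 0 lower (median difference −0.15). Beside Cdkn1c these were Cdkn2a, at 3.29 FPKM in the control and 13.2 in the knockdown, and Cdkn2b, at 0.665 and 6.96, which encode inhibitors of cyclin D kinases and neighbour each other. Cdkn1a, another inhibitor, was at 55.1 and 39.7 FPKM. Mki67, a marker of cycling cells, was at 40.2 and 33.8 FPKM.

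Genes of cholesterol synthesis lay within the size rule with 1 exception. Of 20 members 1 was higher and 0 were lower, and the median difference was 0.42. Sqle, squalene epoxidase, was at 33.0 FPKM in the control and 47.4 in the knockdown, and Cyp51, a sterol demethylase, at 49.7 and 71.7, both within the size rule. Fdps, which makes farnesyl diphosphate, was at 85.3 and 84.9 FPKM. Glycolysis genes had a median of −0.17 over 19 members, with 1 higher. Several other lists had few members past the rule. Of 18 genes of epithelial to mesenchymal transition 1 was lower, Snai1, a repressor of cadherin genes, at 6.18 and 1.10 FPKM. Of 18 p53 targets 1 was lower, Phlda3, at 48.5 and 21.4 FPKM. Of 8 Notch pathway genes 1 was higher, the target gene Hey1, at 3.68 and 12.2 FPKM, and none of 5 Hedgehog pathway genes passed the rule. Of 18 genes of unfolded protein and amino acid stress 1 was higher and 2 were lower, and of 15 genes of basement membrane and matrix 1 was higher and 1 lower.

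Genes of interferon response and antigen presentation had a median difference of −0.81 over 14 members, of which 3 were lower and 0 higher. The largest decrease on this list was that of Ltb, the tumour necrosis factor family cytokine, at 25.6 FPKM in the control and 0.546 in the knockdown. B2m, the light chain of class I molecules, was at 115 FPKM in the control and 69.2 in the knockdown. H2-K1, a class I heavy chain, was at 59.5 and 31.4 FPKM, within the size rule, and Bst2, an antiviral membrane protein, at 221 and 119. Isg15, a ubiquitin-like protein induced by interferon, was at 8.005 FPKM in the control and listed at 0 in the knockdown. Cxcl10, a chemokine, was at 6.65 and 0.253 FPKM at a locus shared with other genes. Usp18, an interferon response gene outside the list, was higher, at 1.36 FPKM in the control and 6.51 in the knockdown.

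Neural and other lineages were mixed. Of 12 anterior epiblast and neural plate genes 5 were higher and 1 was lower (median difference 0.20). The median was 1.14 with a floor of 1 FPKM, 0.65 with none and −0.07 with 5 FPKM in both libraries. Otx2, a homeobox gene of the anterior epiblast, was at 107 FPKM in the control and 218 in the knockdown. Tubb3, a neuronal tubulin, was at 0.487 and 9.75 FPKM, with an ES cell level of 24.7. Nes, an intermediate filament of neural progenitors, was lower, at 16.5 and 5.29 FPKM. Later mesoderm could hardly be read: 2 of 18 paraxial mesoderm genes, 2 of 17 lateral plate genes and 1 of 18 Hox and Cdx genes reached the floor.

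Markers of other cells that such cultures can hold were summed as FPKM. The 18 trophoblast genes summed to 93.4 FPKM in the control and 76.8 in the knockdown, with 6 and 7 of them listed at 0. The 15 fibroblast and feeder genes summed to 120.5 and 203 FPKM, of which 12 and 10 genes were under 1 FPKM. Vim, which ES cells also express, made up most of that sum, at 109 and 182 FPKM, and Col3a1 was listed at 0 in both. Of the 4 genes of that list above the floor, 1 was higher and 0 were lower. The higher one was Dcn, one of the 20 highest genes above, at 0.253 FPKM in the control and 9.12 in the knockdown. The part of such other cells in the differences above was not tested.

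Some genes called in the same direction were consecutive members, at distances from a few kb to some Mb. Among consecutive members along the chromosomes there were 26 runs of at least 2 genes called in 1 direction, 16 higher and 10 lower, with 56 genes in all. Over all 8328 genes 2.76% were higher and 2.16% lower, so some neighbours share a call by position alone. Whether the runs exceed that number was not tested. Some runs are 1 deposited locus, as for Epha1 and Zyx. The longest higher run lay on chromosome 18, 43367351 to 43896891 on mm9, and held Stk32a, Dpysl3, Jakmip2 and Spink3. Dpysl3, a protein of growing neurites, was at 13.3 FPKM in the control and 87.8 in the knockdown. Stk32a, a kinase gene, was at 0.378 and 9.66 FPKM, and Jakmip2 at 0.440 and 6.64. Stk32a and Jakmip2 were thus each under 1 FPKM in the control. The next member along the chromosome, Dcp2, a decapping enzyme, was at 10.4 and 11.02 FPKM.

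**Figure D4:**
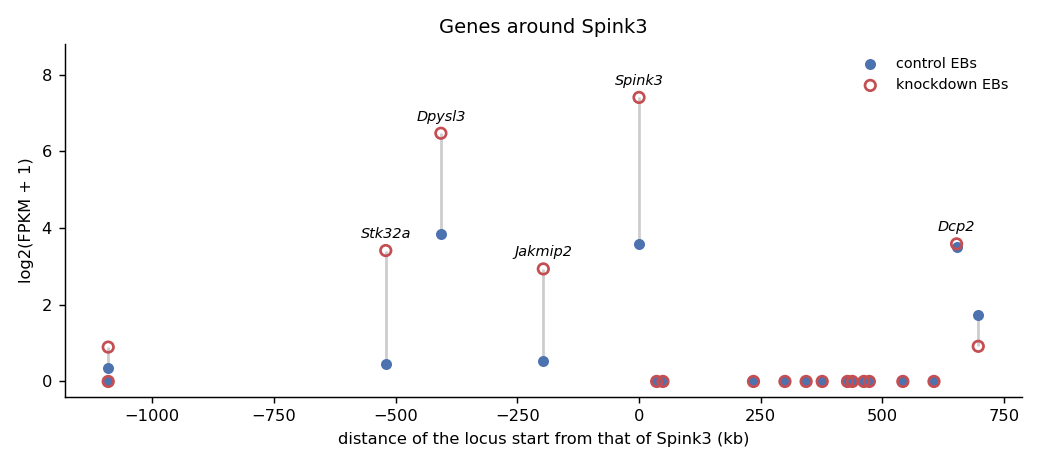
The log2(FPKM + 1) of the genes around Spink3 on chromosome 18 in the control and the knockdown library, by distance in kb of each locus start from that of Spink3. Stk32a, Dpysl3, Jakmip2 and Spink3 are higher in the knockdown, and Dcp2, at 10.4 and 11.02 FPKM, is not.

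The longest lower run held S100a1, S100a13, S100a6 and S100a11 on chromosome 3, with a span of 3015 kb in which S100a11, from 93324410, lies apart from S100a6, which ends at 90418336. S100a1 was at 39.5 FPKM in the control and 17.2 in the knockdown, and S100a13 at 7.58 and 3.06. The printed S100a13 window and that of S100a1, on the opposite strand, share 204 bases, so the starts of these genes face away from each other. Pairs lay elsewhere. Wnt8a had as its neighbour Nme5, a gene of sperm and ciliary axonemes, at 11.2 and 1.63 FPKM, within 36.8 kb on chromosome 18. Grb10 neighboured Ddc, the aromatic amino acid decarboxylase gene, at 0.782 and 8.15 FPKM on chromosome 11. Chrd lay beside Thpo, the thrombopoietin gene, at 7.39 and 2.64 FPKM, where overlapping reads cannot be separated because strand use in counting is not given. In loci that hold several genes the order of the genes is not known.

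The median difference was close to 0 on every chromosome measured. Medians of the 20 chromosomes with at least 50 members ran from 0.0015 on chromosome 15 to 0.078 on X. The share of members called varied more: 5.15% were higher and 4.12% lower on X, 4.69% and 4.23% on chromosome 18, and 2.10% and 0.350% on chromosome 19. Of the Y-linked genes Eif2s3y was at 4.23 FPKM in the control and 4.84 in the knockdown, and Ddx3y at 0.223 and 0.381. Both libraries thus had the Y-linked transcripts at like levels.

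**Figure D5:**
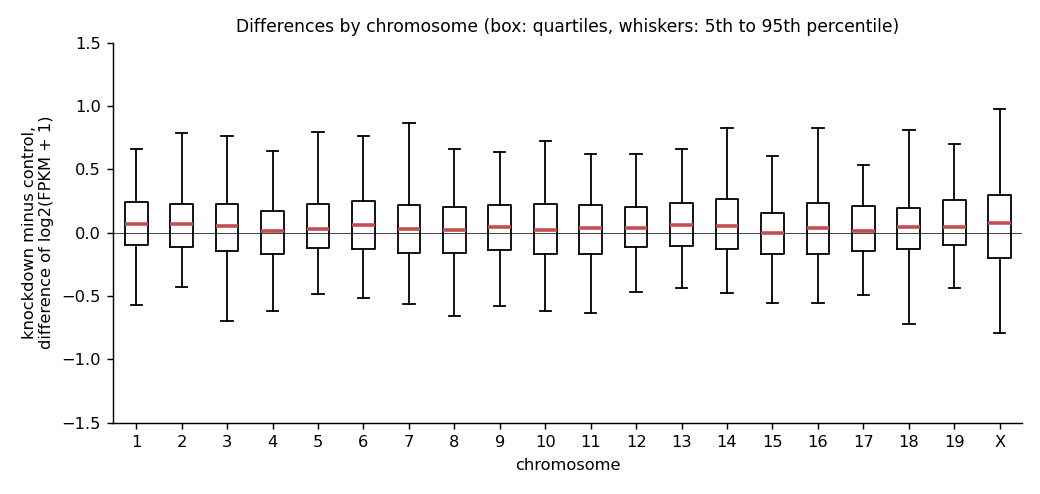
Differences of log2(FPKM + 1), knockdown minus control, of the members on each chromosome with at least 50 members, with the median as a line, the quartiles as a box and whiskers from the 5th to the 95th percentile. The medians run from 0.0015 on chromosome 15 to 0.078 on the X chromosome, around the 0.037 of all genes.

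The rows set apart as copies passed the size rule more often than the genes kept. Of 1493 copies 170 were higher (11.4%) and 49 lower (3.28%), with a median difference of 0.033. H3f3c, a histone gene nearly identical to H3f3a, was at 4.07 FPKM in the control and 223 in the knockdown. Gm15148, a copy of the ribosomal protein gene Rpl39, was at 1627 and 151 FPKM. Reads of such rows can be assigned to a parent gene or to its copy, so these values are uncertain and enter no count above.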

How the data were processed

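RNA of 1 control and 1 Brachyury knockdown culture was measured as FPKM, which the authors deposited per gene per the file headers, with an unadjusted p-value and the natural log of the fold change. Per the submitters' processing notes, which give no versions, the tools were Bowtie and Cuffdiff and the build was mm9. Depth is unknown here, so no counting error could be computed. The members and the gene lists were chosen with earlier results of these data known.

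Rows of the same symbol were summed in Python 3.11.15 (pandas 2.3.3, numpy 2.4.6), and genes of at least 5 FPKM in either library were kept. Rows were set apart as copies where the biotype or symbol was a pseudogene's, where at least 50% of the 35-base words of the longest GENCODE M21 transcript were found in another gene, or where an unnamed row had no such transcript. The pseudocount was 1. With 1 library a side there was no test. Besides T, the markers and the 20 highest and 20 lowest genes, the text names the genes of each list with the greatest differences or the highest control levels, the highest and lowest copies, and genes at the edges of the rules. Many list members are covered by counts alone or are not reported here. Other list members, gene families and neighbours were chosen after their values were seen. The calling code was also run on simulated data, with changes planted in a copy of the control values of well-expressed genes. That checks the code alone and says nothing of these libraries or of weakly expressed genes. Alternatives changed the floor, the pseudocount, the scaling, the size rule and the rows kept.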

Additional observations from a re-analysis of the deposited data

How the results depend on the processing

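T kept its direction and stayed past the size rule under every alternative that could measure it. So did 42 further genes, the rest of the 20 highest and 20 lowest and those listed at 0 in 1 library. These genes were chosen for large differences, and most alternatives leave a gene's own difference unchanged. Their directions could therefore hardly have changed, and this is no support for them. Against 230 genes higher and 180 lower, the number higher was 458 with a floor of 1 FPKM and 458 with none, 64 with a floor of 20 FPKM, 400 with copies kept, 145 without shared loci and 107 with a difference of at least 1.5. The number lower was 54 with a floor of 20 FPKM and 84 with a difference of at least 1.5. With at least 5 FPKM in both libraries, a setting chosen after seeing the data, 80 were higher and 68 lower. A stricter floor or rule leaves fewer genes by construction. Of the list medians followed here, only those in the next sentence were at least 1 from 0, and none of these changed sign. The naive pluripotency median, 1.64, was 0.79 with no floor and 0.77 with a mean of at least 5 FPKM, that of described Brachyury targets, −1.78, was −0.96 with no floor, and that of Wnt ligands and R-spondins, −2.11, was −0.91 with a floor of 1 FPKM and −0.16 with none. Medians of 27 of 622 list values changed sign, all of lists whose reported median was at most 0.451 from 0. With a floor of 20 FPKM the streak median, −0.97, was −0.07 and the node median, −0.99, was −0.31, while the contractile median, −0.77, was −1.13 with a floor of 1 FPKM. Depth is unknown, and genes under 5 FPKM in either library are the least certain. No paired analysis was possible because each group was 1 library.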
